A study of Mus musculus with 8 samples.

Results

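Gene expression in CD4 T cells lacking Smad3 was compared with that in CD4 T cells lacking Smad2, both cultured for 24 h with TGF-b, and the same difference was read in cells cultured without TGF-b. The comparison rests on 4 of the 8 arrays of the series, of which the 2 with TGF-b are the ones compared, and every genotype and treatment has 1 array. The question is which genes the knockouts express at unequal levels under TGF-b, and which of those were already unequal at rest, meaning without TGF-b.

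The knockouts were Smad3KO, a Smad3 knockout labelled Smad3-/-, and Smad2KO, a conditional knockout confined to T cells and labelled Smad2del/del. The wild type (WT) pair of arrays served as a reference for what the same culture does in cells with both Smads. All mice were labelled C57BL/6J. Their age and sex, the Cre line behind the conditional knockout and the number of animals per culture are not stated in the labels used here. Naive cells (CD4+CD25-CD44loCD62Lhi) were sorted from spleen to a purity over 98%. All cultures received IL-2 at 10 ng/ml, anti-CD3e bound to the plate at 1 ug/ml, anti-CD28 in solution at 1 ug/ml, and both anti-IL-4 and anti-IFN-g at 10 ug/ml. The TGF-b cultures also received TGF-b at 2 ng/ml. The controls thus carried T cell receptor stimulation and the block of IFN-g and IL-4 as well.

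Smad2 and Smad3 are the receptor-regulated Smads of the TGF-b pathway: the type I receptor phosphorylates them, they join Smad4 and move to the nucleus. The MH1 domain of Smad3 binds DNA directly, whereas the common splice form of Smad2 carries an insert that prevents this. In CD4 T cells the pathway restrains proliferation and IL-2 and IFN-g production, and it induces Foxp3, the defining transcription factor of regulatory T cells.

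Values are probe set intensities on single-colour Affymetrix arrays, scaled to an equal 2% trimmed mean and called scaled signals here. Signals below 32.5, the median of the WT, Smad2KO and Smad3KO arrays, were set to that floor before log2 was taken. A gene was bright where 1 of both arrays compared was at 65.0 or above. All differences are Smad3KO minus Smad2KO on the log2 scale of floored signals. Since each side is 1 array, these differences have no replicate check and no p, and a fold is written as "at least" where the dimmer signal lay under the floor. Where 3 values follow each other without names, they belong to Smad3KO, Smad2KO and WT in that order, and a pair of values for 1 genotype gives the array without TGF-b first. Precision is limited by the number of arrays.

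With TGF-b, 246 of 8993 bright genes (2.74%) differed by 2-fold or more, 119 higher in Smad3KO (1.32%) and 127 lower (1.412%). Without TGF-b, 173 of 8981 bright genes (1.93%) did, 73 higher (0.813%) and 100 lower (1.11%). The fold was a lower bound for 26 of the higher and 27 of the lower genes with TGF-b. The median difference over the genes bright on both arrays was 0.03 with and 0.00 without TGF-b, and its robust SD was 0.23 and 0.24. Across the 8735 genes bright in both comparisons the differences had a Pearson correlation of 0.505 and a Spearman correlation of 0.40. These are correlations across genes, which are not independent replicates.

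The 246 genes fell into 4 classes. In 61 genes (24.8%) the difference was 2-fold or more in the same direction without TGF-b too, which is called apart at rest. They are 35.3% of the 173 genes at 2-fold without TGF-b. In 93 genes (37.8%) the difference at rest was under 0.5 in that direction and the difference between the differences was 2-fold or more, which is called parted by TGF-b. A further 90 genes (36.6%) lay between these classes and 2 crossed from one direction to the other. Conversely, 67 genes at 2-fold at rest differed by under 0.5 with TGF-b.

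**Figure D1:**
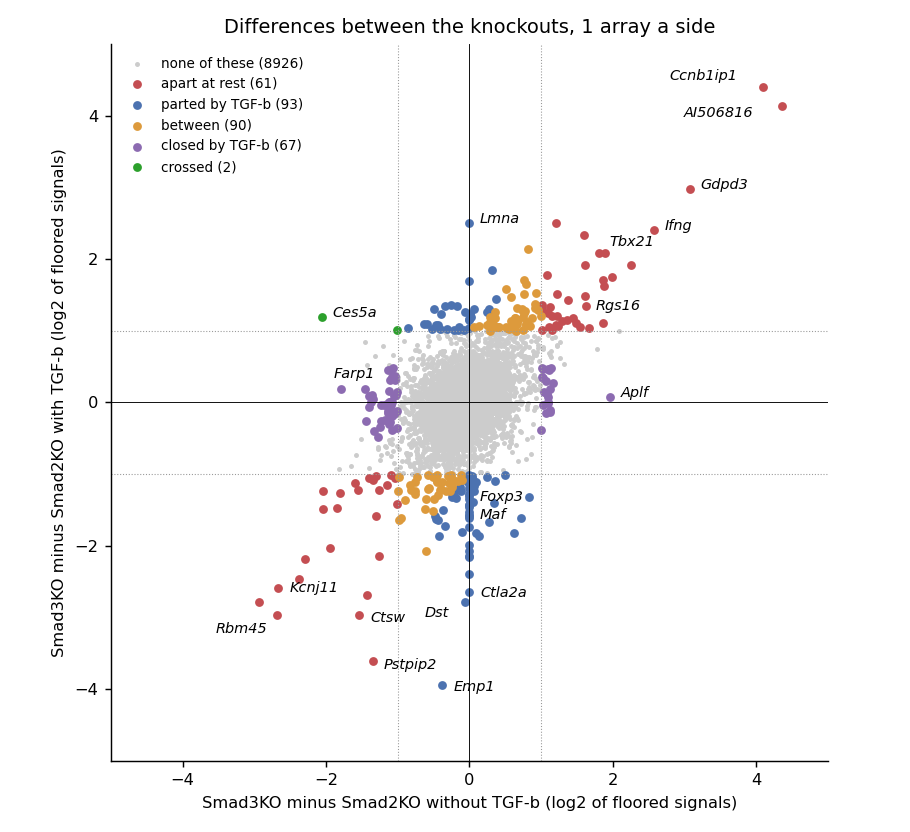
Smad3KO minus Smad2KO (log2 of floored signals) without TGF-b on the horizontal axis and with TGF-b on the vertical axis, 1 point per gene and 1 array a side, coloured by class; dotted lines mark 2-fold. The 61 genes apart at rest lie along the diagonal, and the 93 genes parted by TGF-b lie near the vertical axis, with Emp1 the lowest of them.

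The classes were unevenly split by direction. Genes apart at rest comprised 36 higher and 25 lower in Smad3KO, and genes parted by TGF-b comprised 31 higher and 62 lower. Of the 62 parted genes that were lower, 27 had both knockouts under the floor without TGF-b, so their difference at rest is 0 by the floor and could not be read.

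The lower parted genes were led by transcripts whose signal was higher with TGF-b in WT and Smad2KO cells. Emp1, which encodes a tetraspan membrane protein, read 2.40 without and 55.9 with TGF-b in Smad3KO, against 42.2 and 861 in Smad2KO and 3.27 and 1021 in WT. With TGF-b only the Smad3KO array was low, and the difference was -3.95, or 15.4-fold, against -0.38 without TGF-b. The value at rest is a bound, since Smad3KO lay under the floor. With the floor at the 25th percentile the difference at rest was -2.56, which ends the parted call of Emp1, and 81 of the 93 parted genes kept theirs. The other bright Emp1 probe set gave -1.43 with TGF-b. Ctla2a and Ctla2b, which encode inhibitors of cathepsin L-like cysteine proteases, followed the same order. Ctla2a read 181 in Smad3KO, 1127 in Smad2KO and 1178 in WT with TGF-b, a 6.24-fold difference between the knockouts. Ctla2b read 99.9, 526 and 827 on the same arrays, a 5.26-fold difference. Without TGF-b both genes were under the floor in both knockouts. They are close paralogs, so their probe sets may share signal and the pair is not safely counted as 2 separate genes.

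The promoters of Emp1, Ctla2a, Ctla2b and Ccr8 are shown because Emp1 and the Ctla2 pair were among the 4 lowest parted genes and Ccr8 is a chemokine receptor gene that was also parted. Each runs 5' to 3' from 250 bases before to 50 bases after a RefSeq transcript start, in build GRCm38.p6. The table gives 2 starts each for Emp1 and Ctla2a, and the first listed is printed. Capitals mark the Smad motif CAGACA and the AP-1 motif TGANTCA, found on either strand. In Emp1 a CAGACA match on the minus strand overlaps the first AP-1 match.

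Emp1 promoter (chr6:135362681-135362980, plus strand): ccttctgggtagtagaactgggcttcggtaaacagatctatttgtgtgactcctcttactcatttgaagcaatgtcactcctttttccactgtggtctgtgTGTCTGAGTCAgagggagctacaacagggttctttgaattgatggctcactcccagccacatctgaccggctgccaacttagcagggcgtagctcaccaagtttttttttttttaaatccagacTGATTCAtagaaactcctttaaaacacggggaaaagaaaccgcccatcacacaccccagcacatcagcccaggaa

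Ctla2a promoter (chr13:60936576-60936875, minus strand): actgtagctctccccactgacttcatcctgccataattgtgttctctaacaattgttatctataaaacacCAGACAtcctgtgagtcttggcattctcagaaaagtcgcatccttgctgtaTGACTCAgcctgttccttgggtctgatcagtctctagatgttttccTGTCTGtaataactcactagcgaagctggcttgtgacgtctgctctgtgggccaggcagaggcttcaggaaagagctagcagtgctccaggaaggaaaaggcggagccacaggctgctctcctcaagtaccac

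Ctla2b promoter (chr13:60897398-60897697, minus strand): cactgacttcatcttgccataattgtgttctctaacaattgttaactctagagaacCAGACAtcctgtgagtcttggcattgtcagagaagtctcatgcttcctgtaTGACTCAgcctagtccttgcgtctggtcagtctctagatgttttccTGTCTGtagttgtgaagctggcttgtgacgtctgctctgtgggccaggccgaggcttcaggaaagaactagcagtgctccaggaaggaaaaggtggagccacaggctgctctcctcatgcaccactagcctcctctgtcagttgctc

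Ccr8 promoter (chr9:120091883-120092182, plus strand): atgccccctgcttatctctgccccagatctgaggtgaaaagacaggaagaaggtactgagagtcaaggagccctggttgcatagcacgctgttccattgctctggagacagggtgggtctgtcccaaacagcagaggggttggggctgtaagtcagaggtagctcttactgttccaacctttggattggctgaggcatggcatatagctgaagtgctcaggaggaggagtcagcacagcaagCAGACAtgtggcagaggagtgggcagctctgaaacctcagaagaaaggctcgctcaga

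The Ctla2a and Ctla2b windows were 92.1% identical over 278 aligned bases, and both hold 2 CAGACA matches and 1 TGANTCA match. Of the 62 lower parted genes, 48 had a promoter in the RefSeq table, and CAGACA was present in 18 of them (37.5%), against 6365 of the 27025 genes with a promoter (23.6%), a gene being counted if any of its windows held the motif. TGANTCA was present in 6 of the 48 (12.5%), against 8.97% of the 27025. The palindrome GTCTAGAC was in 0 of the 48 and in 67 of the 27025 (0.248%). Among 24 parted genes with a promoter that were higher, 4 held CAGACA, and among genes apart at rest it was in 7 of 33 higher and 5 of 19 lower genes. A match is a run of letters in this window and does not show binding. The 27025 also hold genes that were not bright here, so they are not a like background. Ctla2a and Ctla2b, with their similar windows, both count among the 18.

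Transcription factors and receptors of helper and regulatory T cells were among the lower parted genes. Foxp3 read 100 in Smad3KO, 288 in Smad2KO and 402 in WT with TGF-b, and 20.6, 24.7 and 2.77 without. All 3 genotypes were above the floor with TGF-b and under it without, and the knockouts differed by 2.87-fold with TGF-b. Maf, a transcription factor of IL-4, IL-10 and IL-21 producing cells, read 665 in Smad3KO, 1992 in Smad2KO and 2638 in WT with TGF-b, and 14.0, 10.5 and 2.28 without. The difference was -1.58, and 4 other probe sets of Maf gave -1.30 to -2.12. Ccr8, a chemokine receptor of regulatory and Th2 cells, read 563, 1521 and 2384 with TGF-b and lay under the floor on every array without it. Its difference with TGF-b was 2.70-fold. For these 3 genes Smad3KO was the lowest of the 3 TGF-b arrays, yet its signal still stood above its own array without TGF-b.

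Other lower parted genes had little or no response left in Smad3KO. Pdlim5, which encodes a PDZ and LIM domain protein, read 309 in Smad3KO, 1366 in Smad2KO and 2266 in WT with TGF-b, and 359, 361 and 395 without. The difference was -2.15 with TGF-b and -0.01 without, 4 other probe sets gave -1.94 to -2.45 with TGF-b, and 1 gave -0.09. H2-DMa, a chaperone of class II peptide loading, read 106, 374 and 409 with TGF-b and 121, 78.8 and 56.8 without, so the knockouts changed places. Dst, Fbxo2 and Sardh were under the floor in Smad3KO both with and without TGF-b, and their differences with TGF-b were at least 6.90-fold, 4.45-fold and 3.97-fold. With the floor at the 25th percentile Dst differed by -2.24 and Sardh by -1.85 at rest as well, which ends both parted calls.

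Genes with a partial response in Smad3KO included a feedback inhibitor and a channel. Socs2, which encodes an inhibitor of cytokine signalling, read 848 in Smad3KO, 3097 in Smad2KO and 3323 in WT with TGF-b, and 114, 153 and 122 without. The difference was -1.87, and 3 other probe sets gave -2.05, -1.47 and -0.06. Aqp3, which encodes a water and glycerol channel, read 429, 1126 and 1469 with TGF-b and 40.0, 38.6 and 64.8 without. Anxa3, which encodes an annexin, read 63.7, 232 and 294 with TGF-b and 44.1, 40.3 and 26.9 without. Socs2 and Aqp3 stood well above their level at rest in Smad3KO, and Anxa3 did not reach 2-fold there.

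**Figure D2:**
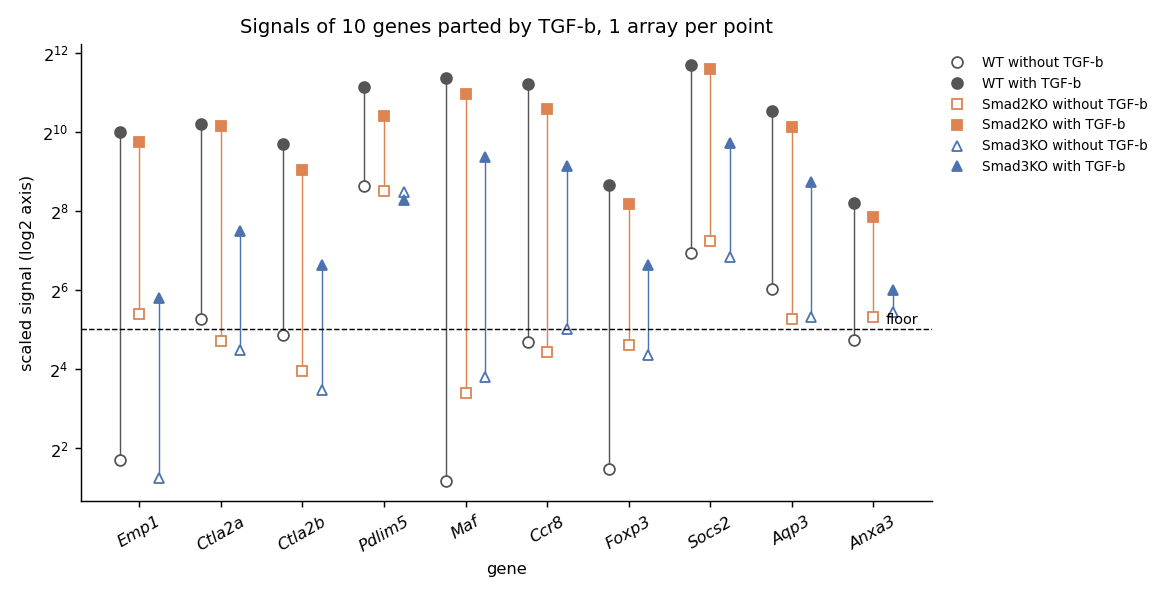
Scaled signals (log2 axis) of 10 lower parted genes, 1 array per point; open symbols are without and filled symbols with TGF-b, lines join the arrays of a genotype, and the dashed line is the floor. With TGF-b the Smad3KO array is the lowest of the 3 genotypes for each gene drawn, as with Emp1 at 55.9 against 861 in Smad2KO.

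The WT arrays took no part in choosing these classes beyond the shared floor and the choice of probe set. Among the 62 lower parted genes, 42 (67.7%) were 2-fold or more higher with TGF-b in WT, against 359 of 8993 bright genes (3.99%), and 0 were 2-fold lower. Their median response to TGF-b was 0.07 in Smad3KO, 1.65 in Smad2KO and 1.76 in WT. With TGF-b, the Smad3KO array was farther from WT than the Smad2KO array in 51 of the 62 genes, against 50.6% of all bright genes; both distances share the WT array. A response of 2-fold or more was seen in 56 genes in Smad2KO and in 13 in Smad3KO, values that the class itself constrains. Since the class largely holds genes that rose in Smad2KO, all bright genes are not a like background for the WT counts and distances.

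The 31 higher parted genes had a median response of 0.64 in Smad3KO and -0.83 in Smad2KO, an order that the class itself sets. Their median in WT was 0.12, and 2 were 2-fold higher and 4 were 2-fold lower with TGF-b in WT. Smad3KO was the farther from WT in 15 and Smad2KO in 16. Lmna, which encodes the nuclear lamins A and C, read 22.2 and 185 in Smad3KO, against 8.54 and 27.8 in Smad2KO and 45.7 and 130 in WT. Its difference with TGF-b was at least 5.69-fold, with Smad2KO under the floor. With the floor at the 25th percentile Lmna differed by 1.38 at rest too, which ends its parted call. The other Lmna probe sets were not bright and gave 0.41 at most with TGF-b. Tatdn2, a nuclease-family gene, read 566 in Smad3KO, 157 in Smad2KO and 424 in WT with TGF-b, and 632, 505 and 384 without, so the Smad2KO array was the low one. Il15ra, the high-affinity receptor chain for IL-15, read 179 and 123 in Smad3KO, against 213 and 47.9 in Smad2KO and 113 and 58.3 in WT. Its signal was lower with TGF-b in all 3 genotypes and least so in Smad3KO. Mpzl2 was at least 3.23-fold higher in Smad3KO with TGF-b. With the floor at the 25th percentile Mpzl2 differed by 1.27 at rest too, which ends its parted call. Cit, a kinase of cytokinesis, was 2.48-fold higher in Smad3KO with TGF-b. The 2 other bright Cit probe sets gave 0.72 and 0.35, and their mean with the first was 0.79, under 2-fold.

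**Figure D3:**
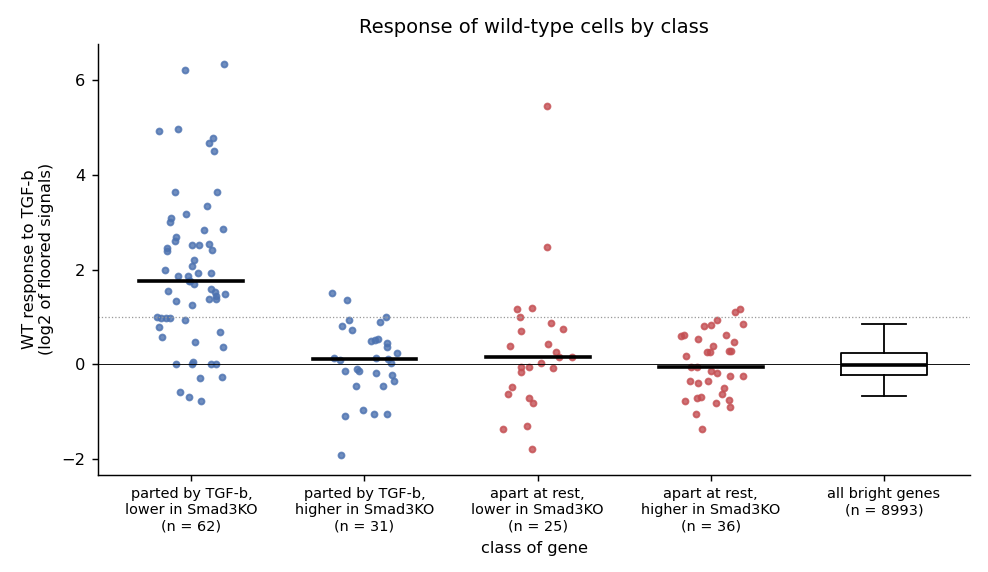
Response of WT cells to TGF-b (log2 of floored signals, 1 array with against 1 without) for genes of 4 classes, 1 point per gene with the median as a bar, beside a box plot of all 8993 bright genes with whiskers at the 5th and 95th percentiles. The lower parted genes have a median of 1.76, and the other 3 classes have medians between -0.05 and 0.16.

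Genes chosen on the WT arrays alone were read in the knockouts as well. The 417 genes that were 2-fold or more higher with TGF-b in WT had a median response of 0.67 in Smad3KO, 1.01 in Smad2KO and 1.39 in WT. The WT median is set in part by this choice on single arrays, so it is no like measure beside the knockout medians. Their median difference between the knockouts was -0.33 with TGF-b, negative in 302 (72.4%), against 45.8% of the 9208 genes bright in WT. Without TGF-b the median was 0.00 and 49.9% were negative, against 50.5% of the 9208. At 2-fold, 62 of the 417 (14.9%), among them 42 of the parted genes, were lower and 7 (1.68%) higher in Smad3KO with TGF-b, against 1.11% and 1.13% of the 9208. The 266 genes that were 2-fold lower with TGF-b in WT had median responses of -0.46, -0.74 and -1.26, the last again set in part by the choice. Their median difference between the knockouts with TGF-b was 0.01, and 36.1% were negative.

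Not every TGF-b target parted the knockouts. Nt5e, which encodes the ectoenzyme CD73, read 815 in Smad2KO and 828 in Smad3KO with TGF-b, both below 2154 in WT. Pmepa1, a feedback inhibitor of the pathway, read 1011 in Smad3KO, 1178 in Smad2KO and 1631 in WT. Skil, which encodes the Smad corepressor SnoN, read 1838, 1922 and 2161, a difference of -0.06 between the knockouts. Il2, which TGF-b represses, read 1729 in Smad3KO, 1570 in Smad2KO and 539 in WT with TGF-b, and 5329, 5537 and 5067 without. Here both knockouts stood above WT, and they differed from each other by 0.14. Itgae, which encodes the integrin CD103, was under the floor on all 4 knockout arrays.

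The list of TGF-b feedback and target genes had 20 bright members. Of these, 6 were lower by 2-fold in Smad3KO with TGF-b, namely Ctla2a, Socs2, Ldlrad4, Ccr8, Capg and Spsb1, and 1 was higher, Rgs16, against 1.412% lower and 1.32% higher over all bright genes. The list's median difference was -0.24, against 0.02 over all bright genes, and 0 members were 2-fold lower without TGF-b. Spsb1, which encodes an adaptor that lowers the type II TGF-b receptor, read 118 in Smad3KO, 254 in Smad2KO and 472 in WT with TGF-b. Smad7, the inhibitory Smad, read 309, 437 and 395 with TGF-b and 181, 152 and 180 without, a difference of -0.50 with TGF-b. The other Smad7 probe set gave -0.89 with and -0.16 without TGF-b.

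Among 14 bright TGF-b receptors and Smads, 3 were 2-fold lower in Smad3KO with TGF-b and 0 higher, beside the same 1.412% and 1.32% over all bright genes. Tgfbr1, which encodes the type I TGF-b receptor, read 1924 in Smad3KO, 4147 in Smad2KO and 3915 in WT with TGF-b, and 457, 429 and 485 without. Its difference was -1.11, and 2 other probe sets gave -1.21 and -1.03. The activin receptor Acvr2a read 96.7, 234 and 238 with TGF-b, and the BMP receptor Bmpr2 read 251, 557 and 653. The 1 other bright probe set of each gave smaller differences under 2-fold, -0.49 for Acvr2a and -0.61 for Bmpr2. By the probe sets used, for all 3 receptors Smad2KO was the closer to WT and Smad3KO was below both. Smad4 differed by -0.15.

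By the probe sets used, neither targeted gene was lower in the knockout named for it. Smad2 read 1046 in Smad2KO and 960 in Smad3KO with TGF-b, and 1155 and 994 without. Smad3 read 437 in Smad2KO and 730 in Smad3KO with TGF-b, and 179 and 614 without, so the library labelled Smad3KO was the higher at both treatments. In WT, Smad3 read 548 with and 149 without TGF-b, and Smad2 read 1031 and 1068. The other 2 Smad3 probe sets gave differences of -0.88 and 0.31 with TGF-b, and of 0.25 and 2.71 without. The place of these probes relative to the deleted exons is not stated in the labels, so they check nothing. Among the 50 bright genes nearest to Smad3 on chromosome 9, 0 differed by 2-fold with TGF-b and 1 without, Arid3b. Among the 50 nearest to Smad2, 2 did with TGF-b, Pstpip2 and Ldlrad4, and 1 without. Over all bright genes 2.74% differed by 2-fold with and 1.93% without TGF-b.

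The lists of T cell states are read against 1.412% lower and 1.32% higher over all bright genes with TGF-b. Of 14 bright Treg genes, 4 were lower (Foxp3, Izumo1r, Gpr83 and Nrp1) and 1 higher (Lag3) with TGF-b, and the median was -0.03. Gpr83, a G protein-coupled receptor of regulatory T cells, read 526 in Smad2KO and 222 in Smad3KO, against 341 in WT. Nrp1 read 419 in Smad2KO and 185 in Smad3KO, against 345 in WT, and its 3 other probe sets gave smaller differences of -0.28 to -0.47. Of 9 bright Th2 genes 2 were lower, Maf and Ccr8, and of 10 bright Th17 genes 1 was, Maf. Of 15 bright Th1 genes, 2 were higher, Ifng and Tbx21, and 1 was lower, Il18r1, with a median of 0.26. Il18r1, a chain of the IL-18 receptor, read 62.2 in Smad3KO, 167 in Smad2KO and 157 in WT with TGF-b. Among cathepsins and protease inhibitors, 4 of 20 were lower (Ctsl, Ctsw, Ctla2a and Ctla2b) and 1 higher (Lgmn). The lists share members, so the same gene is counted in more than 1 of them.

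Ifng and Tbx21 were apart at rest. Ifng, which encodes the Th1 cytokine IFN-g, read 271 and 180 in Smad3KO, against 45.4 and 33.9 in Smad2KO and 65.3 and 35.1 in WT. Both Smad3KO arrays lay above all arrays of the other genotypes, and the knockouts differed by 5.97-fold without and 5.31-fold with TGF-b. Tbx21, which encodes T-bet, the Th1 transcription factor that activates Ifng, read 114 and 138 in Smad3KO, 29.8 and 9.81 in Smad2KO, and 55.7 and 32.8 in WT. The folds were at least 3.50 without and at least 4.23 with TGF-b. The mean difference of Ifng over both treatments was 2.49 (SE 0.28, limma adjusted p 0.000672) and that of Tbx21 was 1.94 (SE 0.358, limma adjusted p 0.0156, or 0.137 without trend and robust settings). Gbp2b and Gbp6, interferon-induced GTPases, were higher too, Gbp2b at 785 and 607 in Smad3KO against 213 and 198 in Smad2KO. Mndal, another interferon-inducible gene, was lower, at 747 and 342 in Smad3KO against 1845 and 1029 in Smad2KO. Of 21 bright interferon-stimulated genes with TGF-b, 1 was higher and 1 lower at 2-fold, with a median of -0.05.

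The mean difference over both treatments was the only Smad3KO against Smad2KO difference with a test. limma was fitted over the 6 WT, Smad2KO and Smad3KO arrays with genotype and treatment as terms, which left 2 residual degrees of freedom. At a Benjamini-Hochberg adjusted p under 0.05, 146 of 9453 genes (1.54%) were higher in Smad3KO and 107 (1.13%) lower, 2.68% in all, and 1520 had an unadjusted p under 0.05. With each array centred on the median of its bright probe sets, the split was 193 higher and 81 lower. These counts rest on moderating the variances with trend and robust settings. Without those settings 7 genes were higher and 6 lower, all 13 of them apart at rest, and 1269 had an unadjusted p under 0.05. With no filter on dim genes 10 were higher and 9 lower. The 13 genes were AI506816, Ccnb1ip1, Gdpd3, Ifng, Thg1l, Supt16 and Gbp2b on the higher side and Casp4, Rbm45, Kcnj11, Mid1, Rpgrip1 and Slc1a5 on the lower side. The residual holds real differences between responses, so a gene parted by TGF-b can hardly pass, and 0 of the 93 did, while 45 of the 61 genes apart at rest passed. Those were chosen for a difference on the same 4 arrays, so their share is fixed in part by the choice. Each genotype and treatment has 1 array, so the residual is only the unequal response of the genotypes to treatment, noise included. The p-values therefore measure no spread among replicate cultures. Separate animals per culture are not stated in the labels, so differences between animals or cell preparations cannot be told apart from genotype.

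Genes apart at rest and lower in Smad3KO included an ion channel and a transporter. Kcnj11, which encodes the pore of the ATP-sensitive potassium channel, read 140 and 220 in Smad3KO, against 886 and 1327 in Smad2KO and 1038 and 1731 in WT. Smad3KO was low on both arrays, with a mean difference of -2.63 (SE 0.11, limma adjusted p 7.92e-08). Slc1a5, the glutamine transporter ASCT2, read 703 and 496 in Smad3KO, against 2696 and 2034 in Smad2KO and 2441 and 1751 in WT, with a mean difference of -1.99 (SE 0.091, limma adjusted p 1.72e-07). For both genes Smad2KO was near WT.

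For other lower genes apart at rest it was Smad2KO that stood away from WT. Rbm45, which encodes an RNA-binding protein, read 139 and 123 in Smad3KO, against 890 and 962 in Smad2KO and 146 and 142 in WT, with a mean difference of -2.83 (SE 0.152, limma adjusted p 7.7e-07). Mid1, a microtubule-associated ubiquitin ligase, read 632 and 765 in Smad3KO, against 3279 and 4209 in Smad2KO and 721 and 808 in WT (mean difference -2.42, SE 0.0967, limma adjusted p 7.92e-08). Pstpip2, a membrane-curvature adaptor and one of the genes nearest to Smad2, read 82.6 and 398 in Smad2KO, under the floor in Smad3KO, and 15.2 and 36.4 in WT. It was at least 12.2-fold lower in Smad3KO with TGF-b, and its mean difference did not pass the test (limma adjusted p 0.0542). Its 2 other bright probe sets gave -2.86 and -3.59 with TGF-b and 0.00 at rest, and the mean of its probe sets was -0.45 at rest, which ends its call as apart at rest. Rpgrip1 lay on both sides of WT, at 5130 and 5022 in Smad2KO and 1046 and 1102 in Smad3KO against 2584 and 3119 in WT. Over the 25 lower genes with TGF-b, Smad3KO was the farther from WT in 14 and Smad2KO in 11, and without TGF-b in 10 and 15. Over all bright genes Smad3KO was the farther in 50.6% with and 57.8% without TGF-b. Of the 25 genes, 18 passed the limma test.

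Ctsw and Casp4 were apart at rest and also differed between treatments. Ctsw, the cathepsin of cytotoxic lymphocytes, read 15.6 and 219 in Smad3KO, against 94.3 and 1713 in Smad2KO and 74.9 and 3269 in WT. The Smad3KO array was lowest at each treatment, with a 7.81-fold difference with and an at least 2.90-fold difference without TGF-b, and the mean difference did not pass (limma adjusted p 0.403). Casp4, the caspase (caspase-11) that senses cytosolic lipopolysaccharide, read 90.1 and 24.9 in Smad3KO, against 688 and 224 in Smad2KO and 301 and 87.2 in WT. It was lower with TGF-b in each genotype and at least 6.89-fold lower in Smad3KO than in Smad2KO with TGF-b.

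Genes apart at rest and higher in Smad3KO were led by transcripts under the floor in Smad2KO. Ccnb1ip1, which encodes a ubiquitin ligase known from meiotic crossing over, read 556 and 688 in Smad3KO, against 17.7 and 13.9 in Smad2KO and 284 and 544 in WT. The knockouts differed by at least 17.1-fold without and at least 21.1-fold with TGF-b. AI506816, a noncoding transcript, read 667 and 573 in Smad3KO, against 14.5 and 3.19 in Smad2KO and 1510 and 1187 in WT. Gdpd3, which encodes a lysophospholipase D, read 274 and 257 in Smad3KO, against 16.6 and 12.0 in Smad2KO and 399 and 579 in WT. For all 3 the Smad2KO arrays alone were under the floor. Dapk1, a kinase of cell death, had the same order at 24.2 and 23.8 in Smad2KO and 155 and 123 in Smad3KO.

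Several higher genes at ordinary signal also had a low Smad2KO pair. Supt16, a subunit of the histone chaperone FACT, read 2783 and 2466 in Smad3KO, against 699 and 736 in Smad2KO and 1626 and 1560 in WT (mean difference 1.87, SE 0.0966, limma adjusted p 5.66e-07). Rgs16, which switches off G protein signalling, read 2519 and 3178 in Smad3KO, against 824 and 1131 in Smad2KO and 3707 and 3382 in WT (mean difference 1.55, SE 0.131, limma adjusted p 0.000424). Vcl, which encodes vinculin, read 262 and 363 in Smad3KO, against 71.8 and 111 in Smad2KO and 268 and 305 in WT. The other bright Vcl probe set gave 0.98 with and 0.12 without TGF-b, so its difference at rest rests on 1 probe set. Cdkn1a, the p21 inhibitor of cyclin-dependent kinases, lay on both sides of WT, at 433 and 435 in Smad2KO and 1013 and 1004 in Smad3KO against 570 and 789 (mean difference 1.22, SE 0.134, limma adjusted p 0.000648). Over the 36 higher genes, Smad2KO was the farther from WT in 24 with and in 27 without TGF-b, and Smad3KO in 12 and 9. Over all bright genes Smad3KO was the farther in 50.6% with and 57.8% without TGF-b. Of the 36 genes, 27 passed the limma test. Without the trend and robust settings Rgs16 and Cdkn1a did not pass (limma adjusted p 0.108 and 0.133). Mau2 and Thg1l were 5.02-fold and 4.25-fold higher with TGF-b by the probe set used, while 2 of 3 other Mau2 probe sets and the 1 other Thg1l probe set had the opposite sign.

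**Figure D4:**
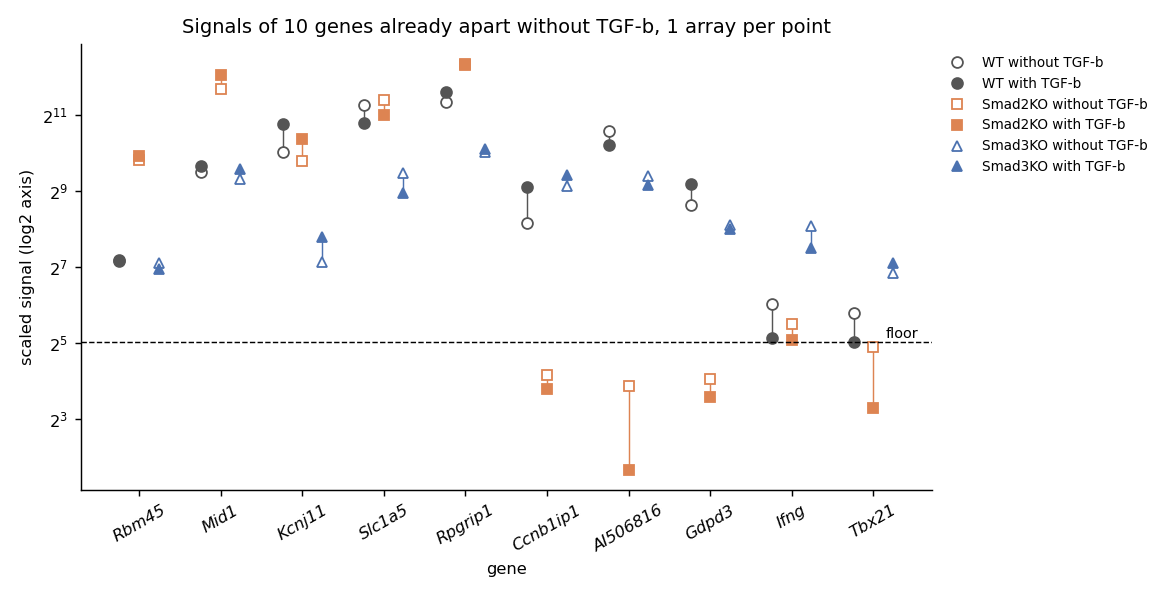
Scaled signals (log2 axis) of 10 genes apart at rest, 1 array per point; open symbols are without and filled symbols with TGF-b, lines join the arrays of a genotype, and the dashed line is the floor. Above the floor the open and filled symbols of a knockout lie close together while the knockouts differ. Kcnj11 is at 140 and 220 in Smad3KO against 886 and 1327 in Smad2KO. Under the floor the symbols can lie apart, as with AI506816 at 14.5 and 3.19 in Smad2KO.

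Some genes apart at rest were neighbours in the genome, which was looked at after their values were seen. Chromosome 7 held 12 of its 676 bright genes in this class (1.78%) and chromosome 14 held 7 of 318 (2.20%), against 61 of 9222 (0.661%) overall. In 10 of the 61 genes another lay within 10 genes, namely Ccnb1ip1, Gm26782, Rpgrip1 and Supt16 on chromosome 14, Slc1a5 with Ptgir and Hikeshi with Ddias on chromosome 7, and Npl with Rgs16 on chromosome 1. Neighbours did not all go the same way: Ccnb1ip1 and Supt16 were higher in Smad3KO, and Gm26782 and Rpgrip1 lower. No share for other sets of genes was taken beside the 10 of 61 (16.4%), so this count is not read as unusual. The part of gene position in these differences was not tested.

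Genes of mitosis and the spindle were higher in Smad3KO as a list. With TGF-b all 35 bright members had a positive difference, from 0.09 to 1.18 with a median of 0.82, against 4861 of 8993 positive and a median of 0.02 over all bright genes. At 2-fold, 6 of them passed, against 1.32% of all bright genes: Nusap1, Ube2c, Hmmr, Kif20a, Prc1 and Aurka. The other bright probe sets of Hmmr gave 0.50 to 0.74 and that of Prc1 gave 0.91 with TGF-b, all under 2-fold. Without TGF-b the median was 0.43, with 35 of 36 positive. In the limma fit 18 of 36 were higher, against 1.54% of all genes tested, and 0 were lower. Without the trend and robust settings 0 passed, with the smallest limma adjusted p at 0.149. The median response to TGF-b was -0.08 in Smad3KO, -0.45 in Smad2KO and -0.34 in WT. With TGF-b the median stood at 0.60 over WT in Smad3KO and at -0.17 in Smad2KO, and without TGF-b at 0.29 and -0.13.

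Single members show the same order. Ube2c, the ubiquitin-conjugating enzyme of the anaphase-promoting complex, read 918 in Smad3KO, 414 in Smad2KO and 592 in WT with TGF-b, and 1082, 674 and 794 without (mean difference 0.92, SE 0.126, limma adjusted p 0.00265). Nusap1, a microtubule-binding protein of the spindle, read 826, 364 and 409 with TGF-b and 663, 428 and 518 without. Mki67, the proliferation marker Ki-67, read 2581, 1370 and 1676 with TGF-b and 2455, 1579 and 1859 without (mean difference 0.78, SE 0.0955, limma adjusted p 0.00125). Smad3KO was the highest genotype in each of these sets of 3 arrays, with and without TGF-b. Of the genes of G1/S and DNA replication, 31 of 35 were positive with TGF-b, the median was 0.23, 0 reached 2-fold and 2 passed the limma test. In bulk samples such as these, fewer cells of a type and less RNA per cell cannot be told apart.

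**Figure D5:**
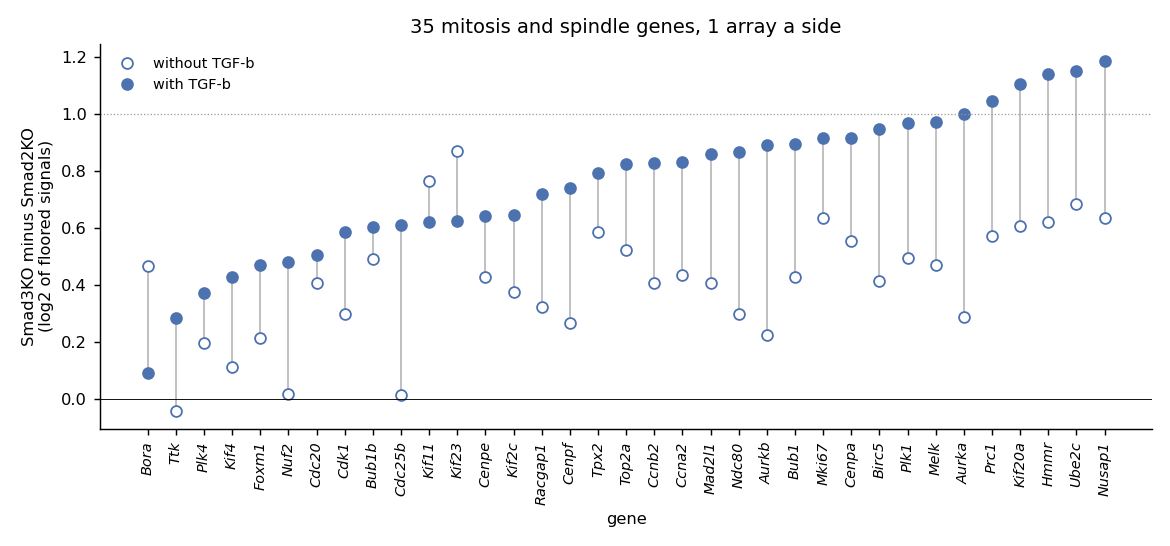
Smad3KO minus Smad2KO (log2 of floored signals, 1 array a side) for the 35 bright mitosis and spindle genes, ordered by the difference with TGF-b; open points are without and filled points with TGF-b, and the dotted line marks 2-fold. All filled points are above 0, with a median of 0.82 against 0.43 for the list without TGF-b.

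Markers and technical readings of the arrays were compared beside these results. All 10 CD4 T cell markers on the array were bright and 0 differed by 2-fold, against 2.74% of all bright genes with and 1.93% without TGF-b. In the limma fit 3 were lower in Smad3KO, against 1.13% of all genes tested. Among them were Cd3e, at 2253 in Smad2KO and 1876 in Smad3KO with TGF-b, and Thy1, at 3715 and 2538. Without the trend and robust settings no CD4 T cell marker passed. None of 9 B cell, 7 NK cell, 1 gamma-delta T cell and 6 erythroid markers was bright, and their summed signals on the 4 knockout arrays spanned 126 to 150, 29.9 to 78.2, 21.0 to 47.4 and 82.0 to 146. Of 14 myeloid markers 1 was bright with TGF-b, Csf1r at 71.3 in Smad2KO and 54.1 in Smad3KO, with sums of 223 to 260. Of the 2 CD8 markers Cd8b1 was bright, at 92.9 and 86.2 in Smad2KO and 38.4 and 55.0 in Smad3KO, and the CD8 sum spanned 68.2 to 144. None of 6 bright memory markers differed by 2-fold with TGF-b, beside the same 2.74%, and their sums spanned 3133 to 4983. The 3 probe sets for 18S ribosomal RNA differed between arrays, at 123 to 226 in Smad2KO and 716 to 997 in Smad3KO with TGF-b, and at 35.0 to 79.5 and 877 to 2544 without. In WT they read 70.7 to 184 with TGF-b and 2614 to 4020 without. The part of these signals in the differences was not tested. The ratio of 3' to 5' signal for Gapdh was 0.785 to 0.835 and for Actb 1.12 to 1.19 over the 6 arrays.

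Other probe sets of the same gene gave a check on single readings, though they are no replicates of the culture. Of the 246 genes at 2-fold with TGF-b, 75 had another bright probe set. In 65 every other probe set had the same sign, in 41 every other reached 1.5-fold, and in 18 none did. Among the 28 such parted genes the counts were 27, 14 and 7, and among the 22 apart at rest they were 18, 16 and 2. Slc31a2, at -1.62 with TGF-b, was a parted gene whose other probe set had the opposite sign, at 0.21.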

How the data were processed

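Values were the probe set intensities that the authors deposited on a linear scale. GCOS 1.4 is named per the submitters' processing notes; how it was run is not stated there. The 6 WT, Smad2KO and Smad3KO arrays were scaled to an equal 2% trimmed mean (factors 0.853 to 1.26), floored at their median of 32.5 and taken to log2. The probe set of highest mean stood for its gene. Of 45101 probe sets, 64 were controls, 34945 had 1 symbol (18193 genes), 9160 were unnamed, and 932 with several symbols were dropped. Bright probe sets made up 39.3% to 40.7% per array.

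Genes at 2-fold were counted where the brighter array was at 65.0 or more. limma 3.58.1 in R 4.3.3 tested the mean difference (trend, robust; Benjamini-Hochberg). Only the limma fit was tested on simulated data, which were log2 values without unequal responses of the genotypes. The scaling, floor, probe set choice and classes were not tested in this way. The rule for named genes took the 10 largest differences and 10 largest bounds per direction under TGF-b, the 8 largest per class and direction, the 10 per direction with the smallest limma p, list members at 2-fold, and a fixed set that included the Smads, Foxp3, Il2 and Ifng. It supplied a pool from which examples were given; Aqp3, Pmepa1, Skil, Mki67, Cd3e, Thy1, Csf1r, Arid3b, Ddias, Ptgir and Gm26782 were added after their values were seen. Members, 25 gene lists and 8 marker lists were chosen with earlier results of these data known. Promoters came from RefSeq (GRCm38.p6).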

Additional observations from a re-analysis of the deposited data

Results flagged for a closer look

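Both genes that crossed are given because the knockouts differed by 2-fold in opposite directions with and without TGF-b. The difference between these differences was not tested, since it rests on 4 single arrays. Ces5a, which encodes a carboxylesterase, read 248 without and 46.2 with TGF-b in Smad2KO and 59.5 and 106 in Smad3KO, with 224 and 14.6 in WT. Smad3KO minus Smad2KO was 1.19 with and -2.06 without TGF-b. Bahcc1, which encodes a chromatin protein, read 65.5 and 28.8 in Smad2KO and 6.53 and 65.6 in Smad3KO, with 57.6 and 23.1 in WT. Smad3KO minus Smad2KO was 1.01 with and -1.01 without TGF-b, both lower bounds in size because the dimmer array lay under the floor. With the floor at 2 times the median both calls ended: Bahcc1 was 0.01 with and -0.01 without TGF-b, and Ces5a was 0.70 with TGF-b.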

How the results depend on the processing

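No paired analysis was possible because each group has 1 array and the labels give no replicate numbers. For the same reason no array could be left out of the 2-fold counts. Raising the floor to 2 times the median gave 73 higher and 80 lower genes with TGF-b, and 37 and 39 without. It gave 23 higher and 14 lower genes apart at rest, 15 higher parted genes and 24 lower genes between the classes. Under that floor 48 of the 93 parted and 37 of the 61 genes apart at rest kept their class. With the floor at the 25th percentile 81 and 61 did. Under quantile normalization 85 and 56 did, and under centring on the bright probe sets 83 and 58. Averaging a gene's bright probe sets kept 70 and 53. The limma counts were 10 higher and 9 lower without the brightness filter, 7 and 6 without trend and robust settings, and 91 and 61 on the 4 knockout arrays alone. Other counts stayed within 1.5 times of those reported. Of 838 values of 60 named genes under these alternatives, 720 were the same, 117 moved and 1 reversed: Slc31a2 with TGF-b was 0.21 when only the 4 knockout arrays were prepared, which picked its other probe set. Signals under the floor set what could not be read, including the difference at rest of 27 lower parted genes.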

Other observations

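Some differences at rest were absent with TGF-b. The 67 genes that were 2-fold unequal without TGF-b and under 0.5 with it comprised 46 lower and 21 higher in Smad3KO at rest. The median response to TGF-b of the 46 was -0.89 in Smad2KO and 0.34 in Smad3KO, which the class constrains, and -0.16 in WT, which it does not. Casp1, the caspase that matures IL-1b and IL-18, read 194 without and 26.3 with TGF-b in Smad2KO, against 74.9 and 31.8 in Smad3KO and 75.9 and 27.9 in WT. The Smad2KO array was the high one at rest, and with TGF-b all 3 genotypes were under the floor. Smarcd1, a subunit of the SWI/SNF chromatin remodelling complex, read 136 and 149 in Smad3KO, against 368 and 179 in Smad2KO and 294 and 183 in WT. Aplf, a DNA repair factor, read 21.5 and 86.6 in Smad2KO and 127 and 91.2 in Smad3KO.

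Counts at 2-fold with TGF-b in the remaining lists are read against 1.412% lower and 1.32% higher over all bright genes. No member reached 2-fold among 30 bright ribosome biogenesis genes, 25 glycolysis and hypoxia genes, 21 naive and quiescence genes, 19 stress genes, 15 integrins and adhesion genes or 13 antigen presentation genes, with list medians of 0.06, 0.16, -0.20, 0.04, -0.08 and -0.09. Of 31 TCR activation genes 1 was higher, Ier3, and of 24 genes of cholesterol and fatty acid synthesis 1 was, the desaturase Scd2, at 1699 in Smad2KO and 4048 in Smad3KO. Of 12 CDK inhibitor, Id and E protein genes, Cdkn1a was higher and Id1 and Mxd4 lower. Of 30 cytokine receptor and Socs genes, Il15ra was higher and Il18r1 and Socs2 lower. Ifng was the 1 of 18 cytokines and Lag3 the 1 of 25 costimulatory and inhibitory receptors at 2-fold, both higher. Of 10 chemokine and homing receptors Ccr8 and Cxcr5 were lower, of 17 S100, annexin and galectin genes Anxa3 and Capg were lower, and of 6 cytotoxic genes Ctsw was lower.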
